A study of Mus musculus with 2 samples.

Results

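The organic anion, cation and drug transporters of the kidney were taken as every gene whose symbol starts with Slc22a, Slco, Slc47a, Abcc or Abcb1, which gave 55 of the 32285 genes counted. Their mRNA was read in single cells of 2 postischemic kidneys of male C57BL/6 mice aged 9 weeks, both taken 24 h after bilateral renal ischemia and reperfusion. The control mouse received saline and the JPI-289 treated mouse received 100 mg/kg of JPI-289, an inhibitor of the DNA repair enzyme PARP-1, in both cases into the peritoneal cavity just before blood flow was restored. Each condition is 1 library of 1 mouse, both kidneys were ischemic, and no uninjured kidney was analysed here, so no test between conditions was possible. The values describe these 2 libraries, and every interval given is a 95% interval that covers counting error only.

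The proximal tubule clears drugs, toxins and metabolites in 2 steps. Carriers of the SLC22 family on the blood side take up organic anions in exchange for dicarboxylates and organic cations down the membrane potential. On the urine side the MATE carriers, P-glycoprotein and some multidrug resistance-associated proteins (MRPs, Abcc genes other than Abcc8 and Abcc9) move them into the lumen. OATPs (Slco genes) carry larger organic anions such as steroid conjugates, prostaglandins and thyroid hormones, in many cell types.

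The control library held 38328760 unique molecular identifiers (UMIs, each marking 1 captured mRNA molecule) and the JPI-289 library 35548396. Calling left 3763 control cells (median 2048 UMIs) and 5045 JPI-289 cells (median 1866), after 546 and 399 called barcodes with over 50% mitochondrial UMIs were left out, and 23 cell barcodes occurred in both libraries. Of 26 clusters, 7 were named proximal tubule-like (PT-like) from their markers, with 1801 control and 1649 JPI-289 cells, and each of the 7 came by at least 90% from 1 library. Of these 7, 1 with 17 control and 886 JPI-289 cells had no PT marker among its 10 leading genes. Injured PT markers summed to 233 CPM (UMIs of a gene per 1000000 UMIs of that class and library) in control and 1353 in JPI-289 PT-like cells, with 4 of the 6 at least 2-fold higher and 2 at least 2-fold lower. Early segment markers summed to 2278 and 602, with 5 of 6 at least 2-fold lower, late segment markers to 647 and 345, with 4 of 6 lower and 1 higher, and the 12 general PT markers to 17581 and 13286, with 6 lower. Kap, 1 of these 12, had 34317 UMIs in a control cluster of 175 cells and 54447 in a JPI-289 cluster of 404 cells. The JPI-289 sum of general PT markers therefore rests mostly on Kap. In PT-like cells the 8 neutrophil markers (6 seen in both libraries) summed to 30.6 and 68.5, the 10 endothelial (EC) markers (all seen) to 54.0 and 19.0 and the 7 thick ascending limb markers (6 seen) to 158 and 29.2. The part of these differences in the transporter values was not tested. Values within a segment are given further on.

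A UMI was found in called cells for 49 of the 55 transporter genes. The other 6 (Abcb11, Abcc12, Slc22a16, Slc22a27, Slco6c1 and Slco6d1) had none, which allows a level of up to 0.0867 CPM over all cells. PT-like cells held 44.7% of all UMIs in cells and 76.3% of the 34763 transporter UMIs, and 24 genes had their highest level in CPM over both libraries there. Some of these 24 rested on as few as 1 to 4 UMIs, and the share over all genes was not counted. In PT-like cells 29 genes had at least 20 UMIs over both libraries and were measured, 12 had 1 to 19 UMIs and 14 had none. Abcb10, a transporter of the mitochondrial inner membrane, and Abcb11 entered only because their symbols share the prefix of P-glycoprotein. Abcc8 and Abcc9, which are sulfonylurea receptors, entered by the prefix Abcc.

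In PT-like cells the transporters were mostly lower in the JPI-289 treated kidney. Their UMIs summed to 19505 in control and 7006 in JPI-289 cells, which is 2399 and 955 CPM, a log2 ratio (JPI-289 over control, used throughout) of -1.33 (-1.37 to -1.29). Of the 29 measured genes 13 were at least 2-fold lower, 3 were at least 2-fold higher and 13 lay between. Over all 11311 measured genes 23.6% were at least 2-fold lower and 9.06% at least 2-fold higher. The median log2 ratio was -0.88 for the transporters and -0.19 for all genes.

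**Figure D1:**
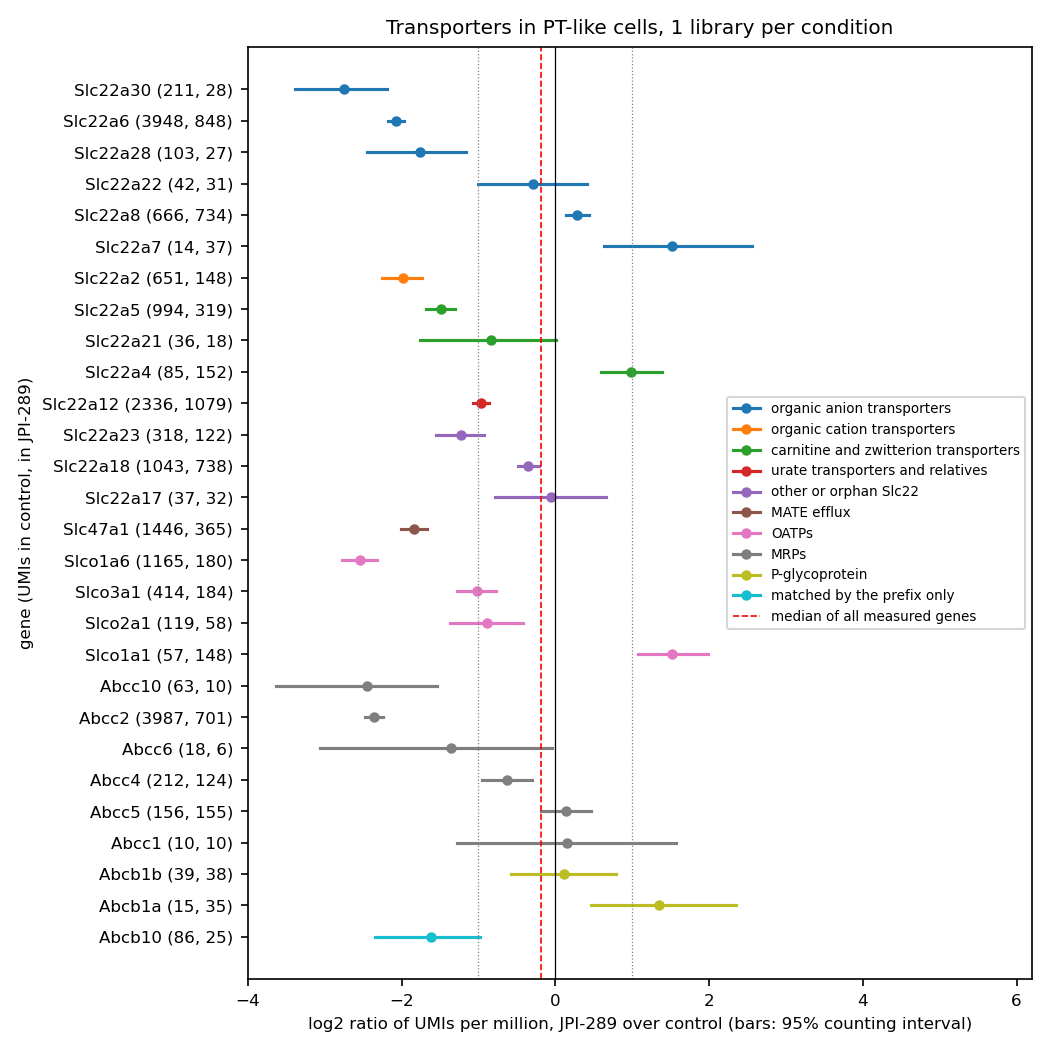
Log2 ratio of CPM, JPI-289 over control, for measured transporters in PT-like cells (x axis), by role (colour) with the UMIs of each library beside the gene name (y axis). Points are the ratios, bars the 95% counting intervals, dotted lines mark 2-fold, and the dashed line is the median of all genes at -0.19. Slc22a30, Slco1a6 and Abcc2 lie far to the left, while Slc22a8 and Slc22a4 lie to the right of 0.

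Among the organic anion transporters, a pair of neighbours differed. Slc22a6 (OAT1, the main blood-side carrier for para-aminohippurate) was counted with 3948 UMIs in control and 848 in JPI-289 PT-like cells, or 486 and 116 CPM, 4.20-fold lower with a log2 ratio of -2.07 (-2.18 to -1.96). Slc22a8 (OAT3, a blood-side carrier with overlapping substrates) was counted with 666 and 734 UMIs, or 81.9 and 100 CPM, a log2 ratio of 0.29 (0.14 to 0.44). Control cells therefore held 5.93 UMIs of Slc22a6 per UMI of Slc22a8 (5.46 to 6.44) and JPI-289 cells 1.16 (1.05 to 1.28). This ratio is taken within each library, so it does not depend on how the libraries were scaled.

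The 2 genes lie on the same strand of chromosome 19 in GRCm38, Slc22a8 at chr19:8591254-8611835 and Slc22a6 at chr19:8618039-8628299, with 6203 bases between them. The 250 bases before each RefSeq start (GRCm38.p6, plus strand) are shown because these neighbours carry the contrast. Both are printed in lower case, with no part marked. The windows are chr19:8617746-8617995 for Slc22a6, between the 2 genes, and chr19:8592932-8593181 for Slc22a8. The Slc22a8 window lies inside the GENCODE span of that gene, which starts further upstream. Bases soon after the RefSeq start were found in a GENCODE transcript of the same gene for Slc22a8 but not for Slc22a6.
Slc22a6: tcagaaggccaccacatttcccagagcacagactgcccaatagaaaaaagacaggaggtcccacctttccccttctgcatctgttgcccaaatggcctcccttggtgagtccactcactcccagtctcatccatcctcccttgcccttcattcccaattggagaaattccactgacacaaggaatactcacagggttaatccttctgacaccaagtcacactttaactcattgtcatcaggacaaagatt
Slc22a8: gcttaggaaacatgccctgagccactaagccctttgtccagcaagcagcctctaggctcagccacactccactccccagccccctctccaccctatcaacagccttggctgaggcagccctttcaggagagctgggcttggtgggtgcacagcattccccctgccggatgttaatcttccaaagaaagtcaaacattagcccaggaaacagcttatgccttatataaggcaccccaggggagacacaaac

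The other organic anion carriers were scarcer. Slc22a30, in the rodent cluster of Slc22a genes on chromosome 19, had 211 UMIs in control and 28 in JPI-289 PT-like cells, a log2 ratio of -2.74 (-3.39 to -2.19). Slc22a28 of the same cluster had 103 and 27 UMIs (-1.76, -2.45 to -1.16). Members of this cluster resemble each other closely, so the split of reads among them is uncertain. Slc22a7 (OAT2), named after its values were seen, had only 14 and 37 UMIs (1.52, 0.63 to 2.55), and Slc22a22, also named after, had 42 and 31. The 5 remaining genes of the group had under 20 UMIs.

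For organic cations, mRNA of a blood-side carrier, Slc22a2, and of a urine-side carrier, Slc47a1, was lower in JPI-289 cells. Slc22a2 (OCT2, blood-side uptake) had 651 control and 148 JPI-289 UMIs, 80.1 and 20.2 CPM, at a log2 ratio of -1.98 (-2.26 to -1.73). Slc47a1 (MATE1, the proton exchanger that completes secretion) had 1446 and 365 UMIs, 178 and 49.8 CPM, a ratio of -1.84 (-2.01 to -1.67). The other MATE and the third cation carrier of the list had at most 1 UMI in either library.

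Of the carnitine carriers, Slc22a5 (OCTN2, which reclaims carnitine from the urine) was lower, with 994 and 319 UMIs, 122 and 43.5 CPM, at -1.49 (-1.68 to -1.31). Slc22a4 (OCTN1, an ergothioneine carrier), which lies near it on chromosome 11 with Slc22a21 between them, had 85 and 152 UMIs, 10.5 and 20.7 CPM, at 0.98 (0.59 to 1.39). UMIs of Slc22a5 per UMI of Slc22a4 were 11.7 (9.36 to 14.8) in control and 2.10 (1.72 to 2.56) in JPI-289 cells. Slc22a12 (URAT1, urate reabsorption) was the third most counted transporter, with 2336 and 1079 UMIs, 287 and 147 CPM, just within 2-fold at -0.97 (-1.07 to -0.86). The orphan carriers Slc22a18 (1043 and 738 UMIs, -0.35, -0.49 to -0.21) and Slc22a23 (318 and 122 UMIs, -1.23, -1.55 to -0.93) were both lower, the first within 2-fold and the second past it.

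The OATPs gave another opposed pair. Slco1a6 had 1165 UMIs in control and 180 in JPI-289 PT-like cells, 143 and 24.5 CPM, a log2 ratio of -2.54 (-2.78 to -2.32). Slco1a1, the nearest transporter gene before it on the same strand of chromosome 6, had 57 and 148 UMIs, 7.01 and 20.2 CPM, a ratio of 1.52 (1.08 to 1.99). They are close paralogs, so the split of reads between them is uncertain. Slco3a1 (414 and 184 UMIs, -1.02, -1.28 to -0.77) lay at the 2-fold line, and was within it in 8 of 17 alternatives. Slco2a1 (the prostaglandin transporter) had 119 and 58 UMIs in these cells (-0.88, -1.37 to -0.42).

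Abcc2 (MRP2, the urine-side pump for glutathione and glucuronide conjugates) had the most UMIs of all transporters in control PT-like cells. It was counted 3987 times in control and 701 times in JPI-289 cells, 490 and 95.6 CPM, 5.13-fold lower at -2.36 (-2.48 to -2.24). The cyclic nucleotide exporters Abcc4 (212 and 124 UMIs, -0.62, -0.96 to -0.30) and Abcc5 (156 and 155 UMIs, 0.14, -0.19 to 0.47) lay within 2-fold, and the interval of Abcc5 includes no difference. Abcc10 (63 and 10 UMIs) and Abcc6 (18 and 6 UMIs) were at least 2-fold lower on few UMIs and were named after their values were seen, and Abcc1 had 10 in each library. The P-glycoprotein genes were both named after their values were seen. Abcb1a had 15 and 35 UMIs (1.34, 0.46 to 2.35), and its paralog Abcb1b had 39 and 38. Abcb10 had 86 and 25 UMIs (-1.61, -2.34 to -0.98).

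Fewer cells held a UMI of the lower genes. When every PT-like cell with at least 1000 UMIs was thinned to 1000, Slc22a6 was seen in 27.7% of 1348 control cells (25.4 to 30.2) and 7.12% of 1138 JPI-289 cells (5.69 to 8.77). Unthinned shares were 43.1% and 16.9%. EC-like cells, which should lack the gene, gave 7.24% and 0.802% thinned, at median depths of 2006 and 1996.5 UMIs against 2235 and 1841 in PT-like cells, so the JPI-289 share of PT-like cells was above that of EC-like cells in its own library and close to that of control EC-like cells. For Slc22a8 the thinned shares were 6.53% (5.27 to 7.98) and 8.0% (6.49 to 9.73) of PT-like and 0.836% and 0.267% of EC-like cells. For Abcc2 they were 28.9% and 7.29% of PT-like and 6.13% and 1.07% of EC-like cells. The plan had named neutrophil-like or red blood cells, not EC-like cells, as the classes that should lack these genes. In neutrophil-like cells the thinned Abcc2 shares were 2.26% in control and 2.75% in JPI-289. An estimated 13.9% of control and 15.9% of JPI-289 UMIs in EC-like cells were free RNA, against 4.41% and 3.01% in PT-like cells. Barcodes under 100 UMIs, which hold free RNA, showed Slc22a6 at 347 and 66.9 CPM (153 and 23 UMIs) and Abcc2 at 299 and 102 (132 and 35 UMIs). Slc22a8 stood there at 40.8 and 40.7 CPM on only 18 and 14 UMIs, a log2 ratio of 0.01 (-1.12 to 1.09).

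The libraries differed in the segments of their PT-like cells. Clusters were called early or late by whichever list of segment markers scored higher, a rule chosen after the clusters were seen, and late clusters held 9.77% of control PT-like cells (8.44 to 11.2) and 25.3% of JPI-289 PT-like cells (23.3 to 27.5). They held 19.9% and 46.3% of the PT-like UMIs. Within early clusters 17 of 27 measured transporters were at least 2-fold lower and 2 at least 2-fold higher, against 27% and 6.98% of all genes there. Within late clusters 14 of 25 were at least 2-fold lower and 0 at least 2-fold higher, against 14.4% and 19.3% of all genes. The medians were -1.15 for transporters and -0.31 for all genes in early clusters, and -1.11 and 0.15 in late clusters, and the summed transporter UMIs had a log2 ratio of -1.59 in both. General PT markers summed to 13872 CPM in control and 4379 in JPI-289 early cells, with 10 of 12 at least 2-fold lower. In late cells they summed to 32501 and 23599, with 4 lower and 1 higher. Kap made up most of both late sums, at 21210 CPM in the main late control cluster and 16070 in the main late JPI-289 cluster. Segment markers differed within their own segments too. Early segment markers summed to 2584 CPM in control and 903 in JPI-289 early cells, with 5 of 6 at least 2-fold lower. Late segment markers summed to 1869 and 683 CPM in late cells, with 4 of 6 lower. The segments of the 2 libraries are therefore not matched on these markers. Injured PT markers summed to 147 and 781 CPM in early cells and to 577 and 2014 in late cells. The part of these marker differences in the transporter values was not tested.

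Of the 24 transporters measured in both segments, 12 were at least 2-fold lower in each: Slc22a2, Slc22a5, Slc22a6, Slc22a12, Slc22a23, Slc22a28, Slc22a30, Slc47a1, Slco1a6, Slco3a1, Abcc2 and Abcb10. The share of all genes lower in both segments was not counted. Taken singly, 27% of all genes were at least 2-fold lower in early and 14.4% in late cells. Slc22a6 had 316 CPM in early control and 24.4 in early JPI-289 cells (-3.69, -4.01 to -3.40), and 1167 and 221 in late cells (-2.40, -2.52 to -2.28). Slco1a6 had 141 and 9.66 CPM in early cells (-3.85, -4.37 to -3.40) and 154 and 41.8 in late cells (-1.88, -2.19 to -1.58). Slc22a2 had 51.6 and 5.08 CPM in early cells (-3.31) and 195 and 37.7 in late cells (-2.37). Both Slc22a6 and Slc22a2 were thus higher in late than in early cells of either library.

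Segments also bear on the genes that were higher. Slco1a1, which was counted mostly in late clusters (44 of 57 UMIs in control and 137 of 148 in JPI-289 cells), had 27.2 and 40.3 CPM within them, a log2 ratio of 0.56 (0.07 to 1.09), and 2.0 and 2.8 within early clusters (0.50, -0.82 to 1.76). Its difference was under 2-fold in each segment. Slc22a7 showed 8.03 and 10.0 CPM in late cells (0.28, -0.64 to 1.36). Slc22a4 was at least 2-fold higher in early cells (49 and 66 UMIs, 1.15, 0.60 to 1.72), and in late cells its ratio was 0.17 (-0.39 to 0.79). Slc22a8 had intervals that include no difference in both, with 70.8 and 78.0 CPM in early (0.14, -0.07 to 0.35) and 127 and 126 in late cells (-0.01, -0.26 to 0.24).

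**Figure D2:**
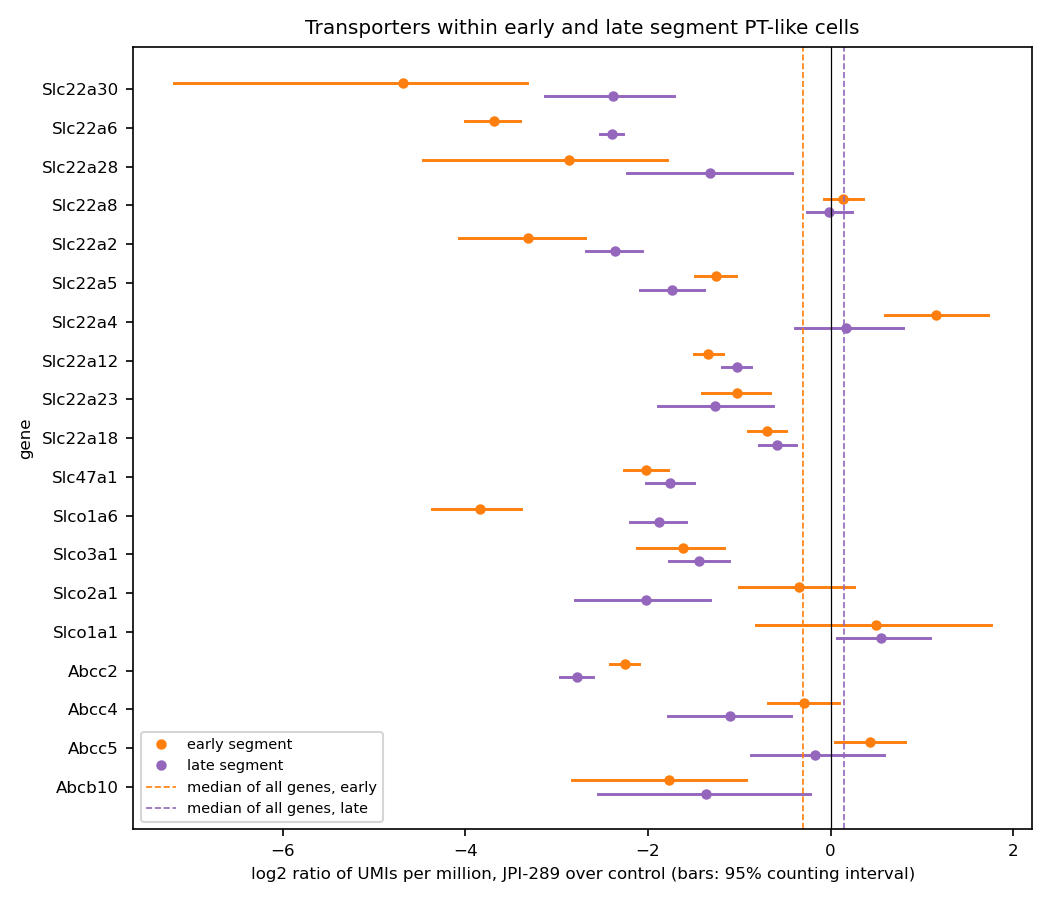
Log2 ratio of CPM, JPI-289 over control (x axis), within early (orange) and late (purple) PT-like clusters for transporters with at least 100 PT-like UMIs (y axis); bars are 95% counting intervals and dashed lines the medians of all genes, -0.31 and 0.15. Slc22a6, Slco1a6, Slc22a2, Slc47a1 and Abcc2 lie left of -1 in both segments, and Slc22a8 and Slco1a1 lie close to 0.

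Clusters within a library differed as well. Over the 3 early control clusters Abcc2 ranged from 157 to 1571 CPM and Slc47a1 from 70.5 to 495. The highest of the 3 for both genes was a cluster of 231 cells with the nuclear transcripts Gm26917 and Snhg11 among its leading genes, which also had the highest Slc22a5 (425), Slco1a6 (378) and Slc22a30 (122). In the 2 early JPI-289 clusters Abcc2 stood at 67.4 and 110 CPM, Slc47a1 at 36.5 and 47.0 and Slc22a6 at 25.8 and 23.5. For 9 of the 20 transporters with at least 100 UMIs (Slc22a2, Slc22a6, Slc22a12, Slc22a30, Slc47a1, Slco1a6, Slco3a1, Abcc2 and Abcb10) every early control cluster was above every early JPI-289 cluster, and for 11 the clusters overlapped. How often all genes showed this order was not counted, so the 9 have no background to be read against. Clusters of the same library come from the same mouse and are not replicates. Slc22a8 overlapped, with 37.8 to 137 in control and 37.8 to 106 in JPI-289 clusters. Between the early clusters of most similar depth, with medians of 6140 UMIs in control and 5428 in JPI-289 cells, Slc22a6 was at 403 and 23.5 and Slc22a8 at 79.2 and 106 CPM. In this pair the injured PT marker Havcr1 was at 46.5 and 258 CPM. Injured PT markers scored above general PT markers in this JPI-289 cluster (339 cells), and their part in these values was not tested.

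**Figure D3:**
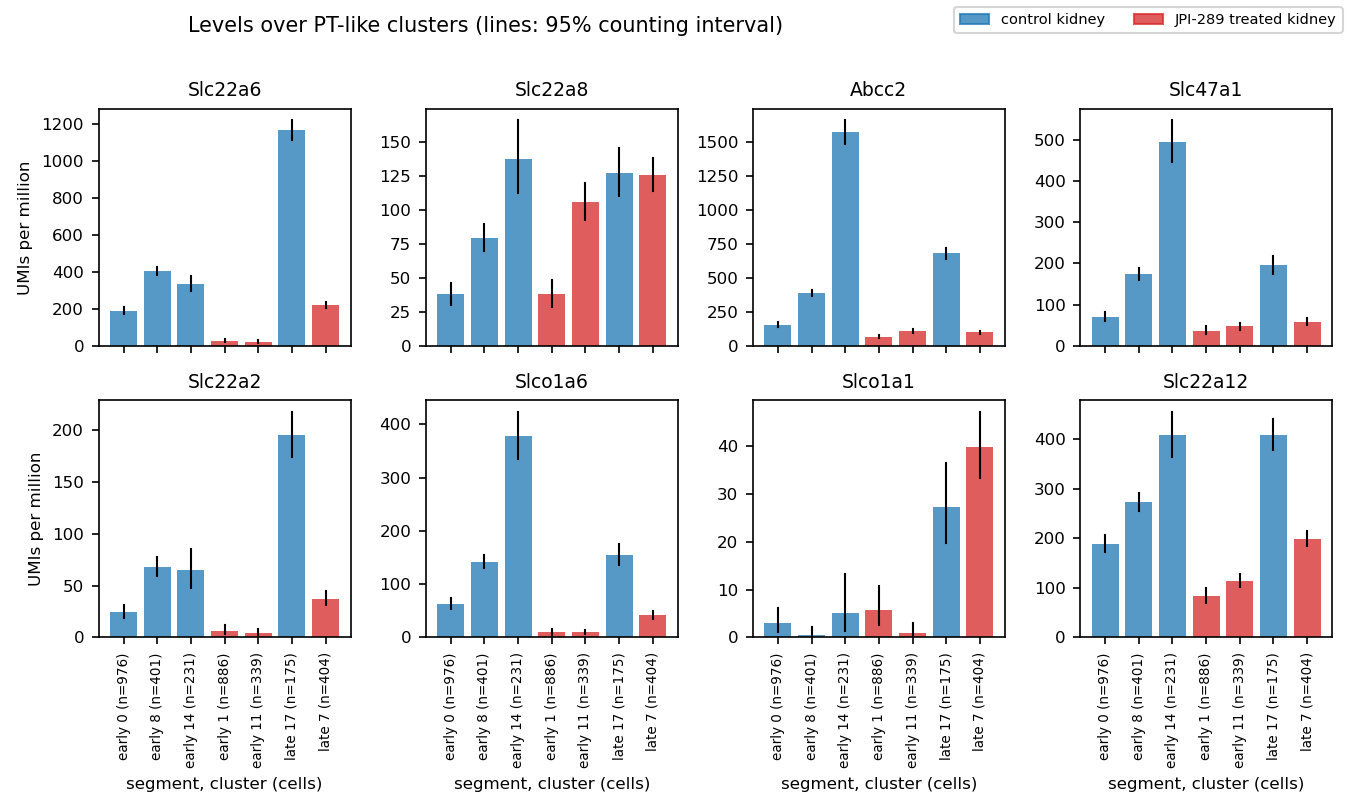
CPM (y axis) of 8 transporters in each PT-like cluster (x axis: segment, cluster number and cells), in control (blue) and JPI-289 (red) cells. Bars are the levels, from 0, and lines the 95% counting intervals; each cluster is drawn for the library that supplied at least 90% of it, and Slc22a8 is the panel in which blue and red bars overlap most.

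Genes that work with these carriers were mostly lower in JPI-289 cells too. Both lists of such genes were chosen with earlier results of these data known. Of 25 exchange partners, scaffolds and other drug or urate carriers, 20 were measured in PT-like cells, and 16 were at least 2-fold lower and 0 at least 2-fold higher, with a median log2 ratio of -1.92, beside 23.6% and 9.06% of all genes and a median of -0.19. Slc13a3, which brings in the dicarboxylates that organic anion carriers exchange, had 1965 UMIs in control and 89 in JPI-289 cells (-4.31, -4.64 to -4.01). Pdzk1, a scaffold that holds urine-side carriers, had 4839 and 341 (-3.68, -3.84 to -3.52). Atp1b1, a subunit of the pump that drives the sodium gradient the carriers use, had 11709 and 2258 (-2.23, -2.29 to -2.16). Abcg2, a urine-side pump for urate and sulfate conjugates, had 3662 and 2466 UMIs (-0.42, -0.50 to -0.35) and Slc17a1 had 2401 and 1743 (-0.31). Both were within 2-fold over all PT-like cells, but the segments differed. In late cells Abcg2 was at 554 and 274 CPM (-1.02) and Slc17a1 at 352 and 177 (-0.99). In early cells their ratios were -0.12 and 0.04. The lower counts held within the segments, at 15 of 19 measured in early and 14 of 17 in late cells, beside 27% and 14.4% of all genes.

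Among 14 regulators of transporter genes, 13 were measured, 9 were at least 2-fold lower and 1 was at least 2-fold higher, with a median of -1.65, beside the same 23.6% and 9.06% of all genes. Hnf4a (1479 and 386 UMIs, -1.79, -1.95 to -1.63), which maintains proximal tubule identity, was lower, as were the bile acid receptor Nr1h4 (1647 and 339, -2.13) and the fatty acid sensor Ppara (1007 and 338, -1.42). Nfe2l2, the antioxidant response factor, was the one that was higher, with 790 and 1956 UMIs (1.46, 1.34 to 1.58), and within late cells 61.8 and 265 CPM (2.10, 1.80 to 2.41). Rxra (0.31) and Cebpb (-0.05) lay within 2-fold.

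**Figure D4:**
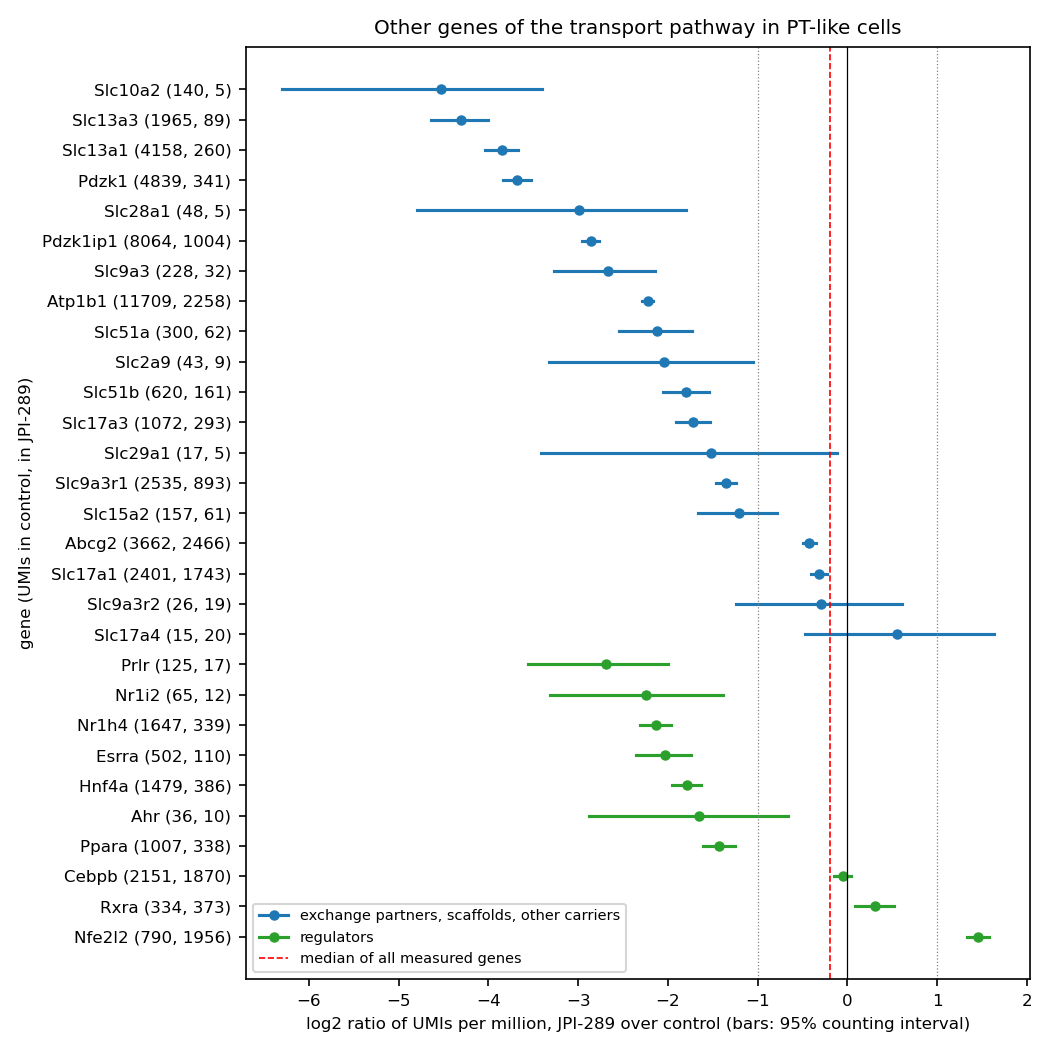
Log2 ratio of CPM, JPI-289 over control (x axis), in PT-like cells for measured exchange partners, scaffolds and other carriers (blue) and regulators (green), with UMIs of each library beside the gene name (y axis). Bars are 95% counting intervals and the dashed line the median of all genes at -0.19. Nfe2l2 at 1.46 stands alone to the right of the 2-fold line.

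The 25 named transporters had at least 100 UMIs in PT-like cells, or at least 50 in another class where their level was highest. Of these, 10 had their highest level over both libraries together outside the proximal tubule, among classes with at least 50 cells in each library. Slc22a15, Slco4a1, Slco2b1, Abcc3 and Abcc1 were named only by the second part of this rule. Their place outside the proximal tubule was therefore fixed by the rule. Slc22a15, a carrier of zwitterions, was highest in neutrophil-like cells, at 94.3 CPM in 196 control cells (41 UMIs) and 212 in 654 JPI-289 cells (342 UMIs), a log2 ratio of 1.15 (0.70 to 1.67). After thinning it was seen in 8.47% (4.82 to 13.6) and 19.1% (16.0 to 22.5) of these cells, and in 1.67% and 2.14% of EC-like cells. The neutrophil-like share was above that of EC-like cells in both libraries. The gene was named for its level in neutrophil-like cells, so this order is not a separate check. A neutrophil-like cluster of 37 cells came from JPI-289 alone.

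Slco2a1 was highest in thin limb-like cells, with 148 CPM in control and 334 in JPI-289 cells (1.17, 0.81 to 1.54), and went the same way in stroma-like cells, with 71.9 and 182 (1.34, 0.83 to 1.85). EC-like cells had 122 and 109 (-0.16, -0.45 to 0.12). One EC-like cluster of 183 cells was from control alone, so EC-like values compare different mixtures. The thin limb-like class was 1 cluster (103 control and 71 JPI-289 cells) with no thin limb marker among its 10 leading genes. Slco4a1, a thyroid hormone carrier, was highest in thick ascending limb-like cells, at 74.5 and 106 CPM (0.50, 0.07 to 0.96), with 10 and 1 UMIs in PT-like cells.

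Slco3a1 was highest in EC-like cells over both libraries together (74.2 CPM, with 66.5 in stroma-like cells), and in the JPI-289 library alone stroma-like cells were above EC-like cells. It was lower in JPI-289 cells of several classes. It had 99.4 and 45.4 CPM in EC-like (-1.12, -1.53 to -0.74), 59.6 and 19.5 in thick ascending limb-like (-1.59, -2.37 to -0.89) and 50.6 and 9.62 in principal cell-like cells (-2.36, -3.40 to -1.49), the last with median depths of 9104.5 and 1539 UMIs. Stroma-like cells had 70.7 and 57.4 (-0.28, -1.06 to 0.41). In free RNA it was at 49.9 and 23.3 CPM, on 22 and 8 UMIs.

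Slco2b1, a carrier of steroid conjugates, was highest in stroma-like cells, with 80 UMIs in control and 15 in JPI-289 cells, 92.7 and 37.4 CPM (-1.27, -2.21 to -0.50). Macrophage-like cells had 34.2 and 15.4 (-1.13, -1.98 to -0.36). Abcc3, a blood-side exporter of glucuronides and bile acids, was highest in macrophage-like cells over both libraries together, though not in the JPI-289 library alone, with 84.3 and 26.5 CPM (-1.66, -2.26 to -1.11), and was at 49.6 and 37.0 in principal cell-like cells (-0.42, -1.02 to 0.18). Abcc1, an exporter of leukotriene conjugates, had 38.5 and 37.7 CPM in principal cell-like cells (-0.03, -0.66 to 0.62) and 45.1 and 28.7 in macrophage-like cells (-0.65, -1.29 to -0.03). Abcb10, Abcc4 and Abcc5 also peaked outside the PT-like class, at 15.3, 30.6 and 24.5 CPM over both libraries in thin limb-like, thin limb-like and stroma-like cells. These peaks rest on only 18, 36 and 31 UMIs. The next class was close, at 13.5 CPM in stroma-like cells for Abcb10 and at 25.6 and 20.5 in principal cell-like cells for Abcc4 and Abcc5.

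**Figure D5:**
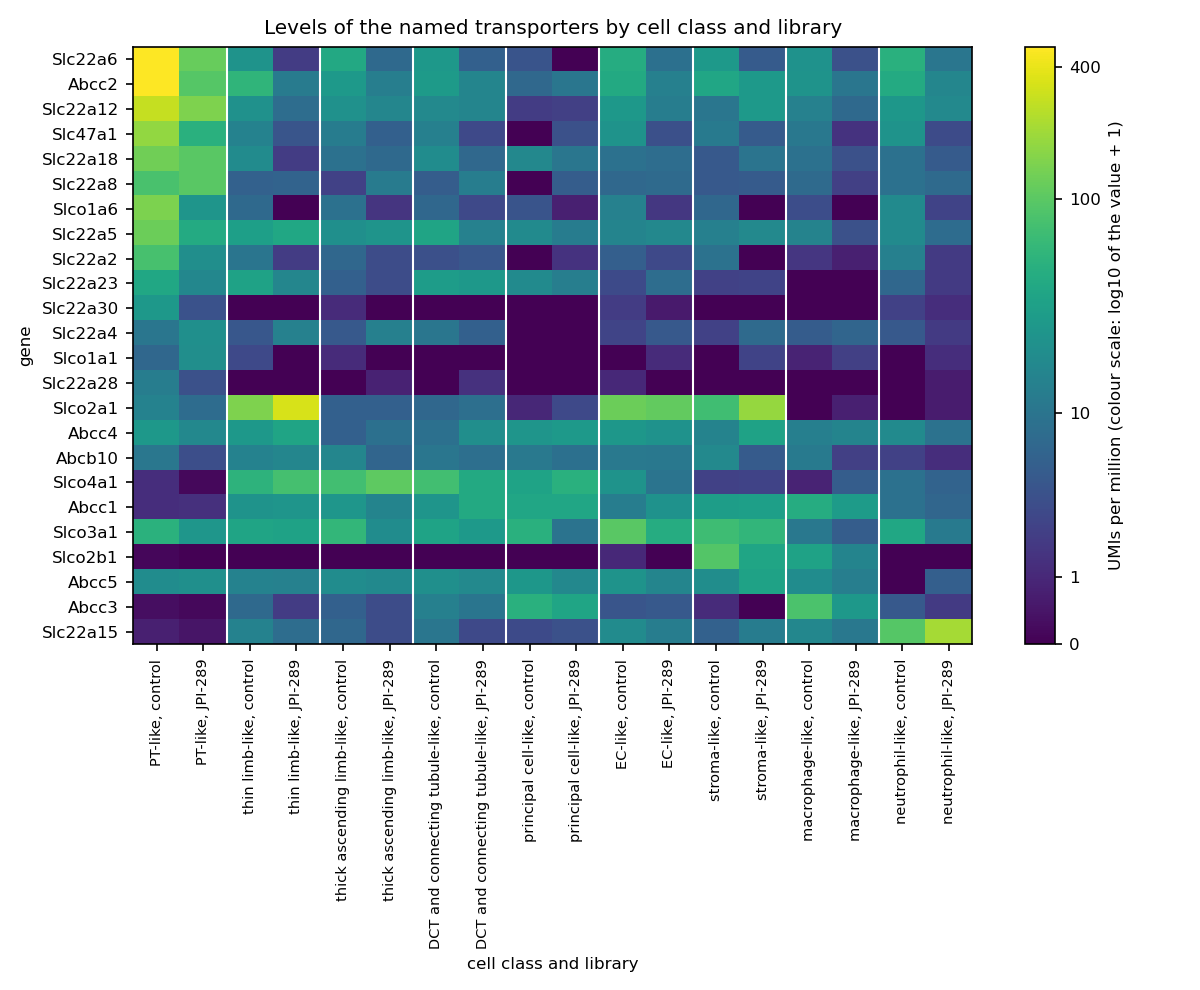
CPM (colour, log10 of the value + 1) of named transporters (y axis) in 9 cell classes of the control and JPI-289 libraries (x axis). The genes are ordered by the class of their highest level over both libraries; Slc22a6 and Abcc2 are brightest in control PT-like cells, at 486 and 490, and Slc22a15 is brightest in JPI-289 neutrophil-like cells, at 212.

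A cluster of nuclear RNA (Neat1, Malat1 and Gm26917 among its leading genes), of 50 control and 299 JPI-289 cells, could not be named. Its JPI-289 cells held Abcc2 at 243 CPM (216 UMIs) and Slc22a5 at 200 (178 UMIs), above the 95.6 and 43.5 of JPI-289 PT-like cells. With this cluster counted as PT-like, the log2 ratio of Slc22a5 was -1.004 in place of -1.49 and that of Abcc2 was -2.12 in place of -2.36. The early control cluster of 231 cells shared the leading genes Gm26917 and Snhg11 with it, but was named PT-like and kept in the PT-like values. That control cluster held 1215 of the 3987 Abcc2 UMIs and 329 of the 994 Slc22a5 UMIs of control PT-like cells. No alternative left out that control cluster alone.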

How the data were processed

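RNA of single cells was captured with a 10x 5′ kit in 1 control and 1 JPI-289 library. Per the deposited matrices, the values are whole-number UMI counts that the authors did not normalize, listed for every barcode and made against mm10. The submitters' processing notes name Cell Ranger 5.0.1, while the matrix header names another version, so which made the counts is not settled. The filters before deposit are not given in the sources used here. Barcodes were called as cells by a fixed cut and a test against free RNA (false discovery rate 0.01, at least 500 UMIs), and those over 50% mitochondrial UMIs were left out. Doublets were scored, and leaving out the top 5% was an alternative. Cells were clustered on 2000 variable genes and 30 components (Python 3.11.15, scanpy 1.11.5, leidenalg 0.10.2, resolution 1) and named from marker lists. UMIs were summed per class and library and divided by the class total. Log2 ratios used an offset of 0.5 UMIs for genes with at least 20 UMIs, and called means at least 2-fold. Intervals are exact Poisson or binomial (scipy 1.17.1, numpy 2.4.6), with figures from matplotlib 3.10.9.

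The members, gene lists and rules were chosen with earlier results of these data known, and the rules naming clusters and segments were set after the clusters were seen. Genes named are those with at least 100 UMIs in PT-like cells, or 50 in another class where their level was highest. Genes with no UMI in cells are listed once, and other transporters with values are said to be named after these were seen. Intervals and limits for a count of 0 (3 counts) cover counting error only, since each condition is 1 library. The ratio and cell-calling steps were tested on drawn data with known answers. Among genes named by the UMI rule, Slc22a12, Slco1a6, Slco2a1, Slco2b1, Slco3a1 and Abcb10 overlap a counted gene on the opposite strand. Slc22a23 and Abcc4 overlap only genes there that were not counted. A search of promoters for motifs and results for some genes are not reported here, though counts over lists include them.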

Additional observations from a re-analysis of the deposited data

Results flagged for a closer look

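In 4 transporter genes the counting intervals lay on opposite sides of 0 in different cell classes. Every transporter with at least 20 UMIs in a class was looked at, the same count was not made over all genes, and several limits lay close to 0. The difference between classes was not tested, since each condition is 1 library. Slco2a1 was lower in JPI-289 PT-like cells (log2 ratio -0.88) and higher in stroma-like (1.34) and thin limb-like cells (1.17). Slco4a1 was lower in EC-like (-1.19) and distal convoluted and connecting tubule-like cells (-0.81, -1.55 to -0.10) and higher in thick ascending limb-like cells (0.50, 0.07 to 0.96). Its EC-like ratio turned to 0.052 with each cell weighted equally. Abcc4 was lower in PT-like (-0.62) and higher in stroma-like cells (1.21, 0.02 to 2.42), the last on 13 control and 14 JPI-289 UMIs. Abcc1 was lower in macrophage-like (-0.65, -1.29 to -0.03) and higher in EC-like cells (0.82, 0.07 to 1.62).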

How the results depend on the processing

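The number of transporters at least 2-fold lower in PT-like cells (13) lay between 11 and 17 and their median log2 ratio between -1.15 and -0.67 over 19 alternatives. The number measured and the share over all genes can change with the alternative. In early clusters 17 of 27 were lower, beside 27% of all genes, and in late clusters 14 of 25, beside 14.4%. For the other alternatives the share over all genes was not counted, so the range has no fixed background. The number at least 2-fold higher (3) became 1 with at least 100 UMIs per gene and 0 in late clusters, where 19.3% of all genes were at least 2-fold higher. The ratio of summed UMIs (-1.33) kept its sign in 17 of 17 alternatives. It lay outside its counting interval (-1.37 to -1.29) in 7 of the 17, with a range of -1.59 to -1.14. This ratio was -1.14 centred on the median gene, -1.42 with each cell weighted equally, -1.17 over all barcodes, -1.59 in early clusters and -1.59 in late clusters. Without the cluster whose injured PT markers scored above its general PT markers (339 JPI-289 cells) it was -1.22. That alternative kept the cluster with Krt20 and Havcr1 among its leading genes (404 JPI-289 cells). Without the cluster lacking a PT marker among its top 10 genes the ratio was -1.15, on 1784 control and 763 JPI-289 cells. Slco4a1 in EC-like cells turned from -1.19 to 0.052 with each cell weighted equally, and the cause was not tested. Of 12 named transporters past 2-fold, 7 stayed past it in all 17 alternatives (Slc22a2, Slc22a6, Slc22a28, Slc22a30, Slc47a1, Slco1a6 and Abcc2). Slco3a1 was under it in 8 alternatives, Slc22a23 in 3, Slco1a1 in 2, and Slc22a5 and Abcb10 in 1 each. Taking single segments, leaving out the unmarked cluster and adding the nuclear RNA cluster were chosen after seeing the data. No paired analysis was possible because each condition is 1 library. Depth limits genes under 20 UMIs, whose ratios were not read.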
